A study of Homo sapiens with 6 samples.

Results

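This account concerns 33 genes of the NRF2 antioxidant programme: the transcription factor NRF2 (gene NFE2L2), its inhibitor and partner, its best-known target genes, and the general enzymes that remove peroxides and superoxide. Members were found by matching the Ensembl identifiers of the deposited tables to the 33 gene symbols, and all 33 were present among 57905 identifiers. Of these, 32 passed the filter on low counts, out of 14578 genes tested, and ME1 did not. The list was not chosen on a measured threshold. It was chosen with earlier results of these data known, so counts among members are descriptions and not tests of the list. The cells were U87, a long-established line grown from a human glioma, and total RNA was sequenced from 6 samples. Control cells (genotype WT, treatment no) gave 3 libraries, and cells labelled siRBM47, for a small interfering RNA against the RNA-binding protein RBM47, gave 3. All cells were grown in DMEM with fetal bovine serum and antibiotics, and the protocol text gives 100 pmol of siRNA with a lipid reagent for every sample. It does not say whether the controls received a non-targeting siRNA, how many siRNA sequences were used or how long the cells were kept, and both groups are of a single cell line. Whether replicates were separate cultures is not stated, so the spread that each p-value rests on may be technical.

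NRF2 is a transcription factor that is held in the cytoplasm and sent for degradation by KEAP1 until oxidants or electrophiles modify KEAP1. Released NRF2 pairs with a small MAF protein in the nucleus and binds antioxidant response elements near genes for glutathione synthesis, the thioredoxin system, NADPH supply, iron storage and detoxification. Its regulation is largely at the level of protein stability, so the NFE2L2 transcript does not report NRF2 activity by itself. In gliomas, as in other tumours, the programme is known for tolerance of oxidative stress and of drugs.

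The antioxidant response element is a short DNA motif, and the stretches below are shown because they place it, in the genes whose transcripts are described, relative to the transcription start. The core TGACNNNGC was searched on both strands in RefSeq windows from 250 bases before to 50 bases after each start (GRCh38.p14), along with the AP-1 motif TGANTCA, which overlaps the core where the letters are TGACTCAGC or its complement. Windows were matched by symbol for 24 members, with 34 starts in all, and 7 of these windows, in 6 genes (GCLM, KEAP1, ME1, PGD, PIR and TXNRD1), held the core. HMOX1, SLC7A11, FTH1, AKR1B10, PRDX1, PRDX6, GSR, SOD1 and ABCC1 had no window and were not searched. Elements beyond the windows were not searched for any member. The core is common: 13.3% of all 35116 windows hold it, and 7.71% hold TGANTCA, which was found here at ME1, OSGIN1 and PIR. A match is a description of letters and not a bound site. Sequences run 5′ to 3′ on the gene's strand with the matched letters in capitals. Where a stretch lay in an annotated exon, only the match with 10 bases on each side is printed.
TXNRD1 first start, chr12:104215640-104215728, plus strand, outside any GENCODE release 29 gene: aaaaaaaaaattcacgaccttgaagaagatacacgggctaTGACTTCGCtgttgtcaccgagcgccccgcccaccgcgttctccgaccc
TXNRD1 second start, chr12:104286920-104286948, plus strand, in a TXNRD1 exon: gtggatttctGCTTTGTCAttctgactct
GCLM, chr1:93909431-93909504, minus strand, the last 26 bases in an annotated exon: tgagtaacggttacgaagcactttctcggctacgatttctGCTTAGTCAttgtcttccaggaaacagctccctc
PGD, chr1:10398823-10398911, plus strand, in the gene's span but in no exon: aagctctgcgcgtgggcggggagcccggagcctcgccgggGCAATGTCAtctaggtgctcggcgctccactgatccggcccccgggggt
PIR, chrX:15493289-15493317, minus strand, in an exon: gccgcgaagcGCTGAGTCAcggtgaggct
ME1, chr6:83431140-83431228, minus strand, outside any annotated gene: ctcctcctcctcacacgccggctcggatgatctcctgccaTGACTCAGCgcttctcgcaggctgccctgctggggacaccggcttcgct
OSGIN1, chr16:83953103-83953189, plus strand, in the gene's span but in no exon, with the AP-1 motif alone: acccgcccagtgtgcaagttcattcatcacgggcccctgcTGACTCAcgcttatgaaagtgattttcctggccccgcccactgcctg
The TXNRD1 match at its first start lies 99 bases upstream and the GCLM match 34 bases upstream, each counted from the start to the first letter of the match. The PIR match lies after the start, at position 27. Further matches at KEAP1, ME1 and TXNRD1 are not printed. The 6 genes with the core had differing values: the groups did not overlap for TXNRD1, overlapped for GCLM, KEAP1, PGD and PIR, and ME1 was hardly counted at all.

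Library totals ranged from 15575297 to 18128549 counts. The targeted gene was checked first: RBM47 stood at 1.62, 1.73 and 5.75 CPM (counts scaled to a library of 1e6 after TMM) in control replicates 1 to 3 and at 3.54, 2.74 and 2.23 in siRBM47 replicates 1 to 3, so a lower level was not detected (log2 difference -0.11, SE 0.50, edgeR adjusted p = 0.942, and 0.76, SE 0.36, edgeR adjusted p = 0.152 without control replicate 3). Directions are therefore given only as libraries labelled siRBM47 against libraries labelled control. Control replicate 3 was unlike the remaining controls, with correlations across genes of 0.941 and 0.950 to them against 0.988 between replicates 1 and 2, so differences are given with and without it. Of 6 glioma line markers, the mesenchymal gene VIM was abundant (2831 to 4939 CPM), as were FN1 and CD44 (control means of 2318 and 800 CPM). CHI3L1 and NES were lower (control means of 43.3 and 13.8 CPM), and SOX2 was near 0 (control mean 0.865). The CDKN2B gene, deleted in U87, had 0 counts, while CDKN2A had 9 counts in control replicate 1 and 0 elsewhere. The astrocyte markers GFAP (at most 1.49 CPM), S100B (at most 0.387) and AQP4 (0) were at or near 0, while the fourth, SLC1A3, was at 26.2 to 56.2 CPM in control and 29.05 to 42.8 in siRBM47. Summed leukocyte markers were at most 0.829 CPM in any library, epithelial markers at most 4.604 and endothelial markers at most 3.034. Summed neuron markers were higher, at 12.6 to 17.03 CPM in control and 17.6 to 29.4 in siRBM47. Among these, SNAP25, named after its values were seen, lay above the controls in every siRBM47 library (log2 difference 0.64, SE 0.25, edgeR adjusted p = 0.254).

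Measured per length, the members differed widely in level, as the plot of deposited FPKM shows. FPKM are fragments scaled to library size and to a length set per gene. The 2 ferritin subunits led in control: FTL, the light chain, at 4250 ± 513 FPKM and FTH1, the iron-oxidizing heavy chain, at 1222 ± 187 (SD, n = 3). AKR1B1, aldose reductase, followed at 505 ± 17.8 FPKM, with TXN, thioredoxin, at 500 ± 136 and the peroxiredoxin PRDX1 at 464 ± 93.1. The spreads of these 3 overlapped, so their order was not resolved. The glutathione peroxidases GPX1 (288 ± 68.8 FPKM) and GPX4 (168 ± 21.5) came next. Inducible NRF2 targets were spread over the ranks and not low as a class. NQO1 was at 90.6 ± 22.2 FPKM and TXNRD1 at 45.2 ± 5.36, while HMOX1 (19.6 ± 3.45), GCLC (4.44 ± 1.14) and GCLM (4.11 ± 1.13) were lower. The sulfiredoxin SRXN1 (0.663 ± 0.342 FPKM) and the malic enzyme ME1 (0.0155 ± 0.0268) were last. The place of SRXN1 is uncertain, because 85.0% of its exon length is shared with another gene on the same strand. In siRBM47 libraries the first 2 ranks and the last 2 held the same genes. The largest moves in rank among the 33 were those of OSGIN1, from 21 to 28, and of AKR1C1, from 25 to 30.

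**Figure D1:**
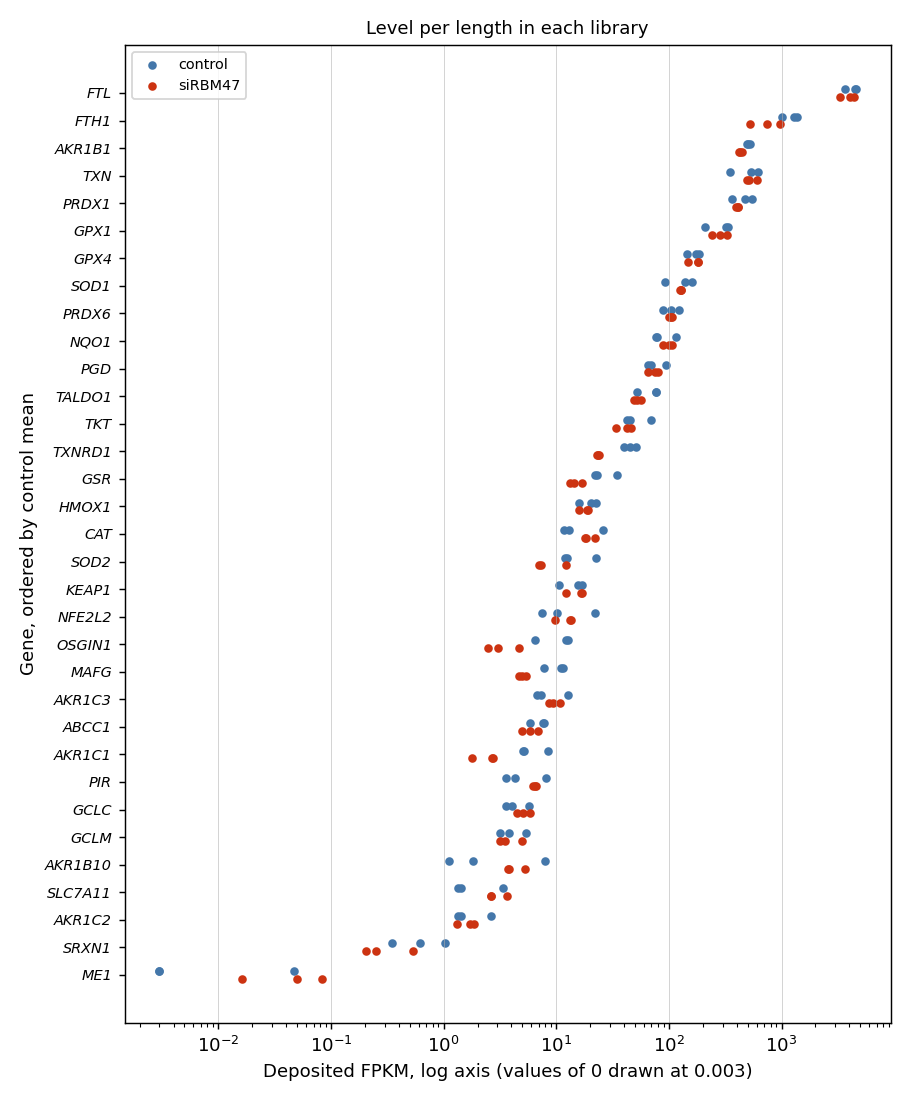
Deposited FPKM of all 33 genes in each library on a log axis (0 drawn at 0.003), ordered by the control mean, with control libraries in blue and siRBM47 libraries in red. FTL and FTH1 lie at the top and ME1, listed at 0 in control replicates 1 and 2, at the bottom. Blue and red points are apart for OSGIN1, MAFG, TXNRD1, AKR1C1 and GSR, and by a small margin for FTH1 and AKR1B1.

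With all 6 libraries, 0 of 32 tested members passed an adjusted p of 0.05 by the edgeR quasi-likelihood test, where 0.22% of all tested genes passed (0.137% lower and 0.0823% higher). At an unadjusted p under 0.05, 7 members were lower and 0 higher in siRBM47 (of all tested genes 8.94% were lower and 7.15% higher, 16.1% in all). Limma-voom passed 0 members, where 0.233% of all tested genes passed (0.144% lower and 0.0892% higher). DESeq2 passed 5, all lower: MAFG, OSGIN1, TXNRD1, AKR1C1 and GSR, where it passed 4.42% of all tested genes (2.63% lower and 1.79% higher). EdgeR without the filter on low counts passed these 5 and SOD2, all lower, where 2.97% of 27110 genes passed (1.76% lower and 1.2% higher). Every siRBM47 library lay below every control library for 7 members and above for 0, against 11% and 11.6% of all tested genes (22.6% in all), and the 7 were these 5 with FTH1 and AKR1B1. The median log2 difference over the 32 members was -0.12, with 22 negative and 10 positive, beside a median of -0.01 over all tested genes, of which 51.2% were negative. Without control replicate 3, 7 members were lower and 4 higher by edgeR, beside 11.3% and 10.1% of all tested genes (21.4% in all). The members' median was then -0.17, with 21 negative, where 48.4% of all tested genes were negative. In bulk RNA, fewer cells with a transcript and less of it per cell cannot be told apart.

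**Figure D2:**
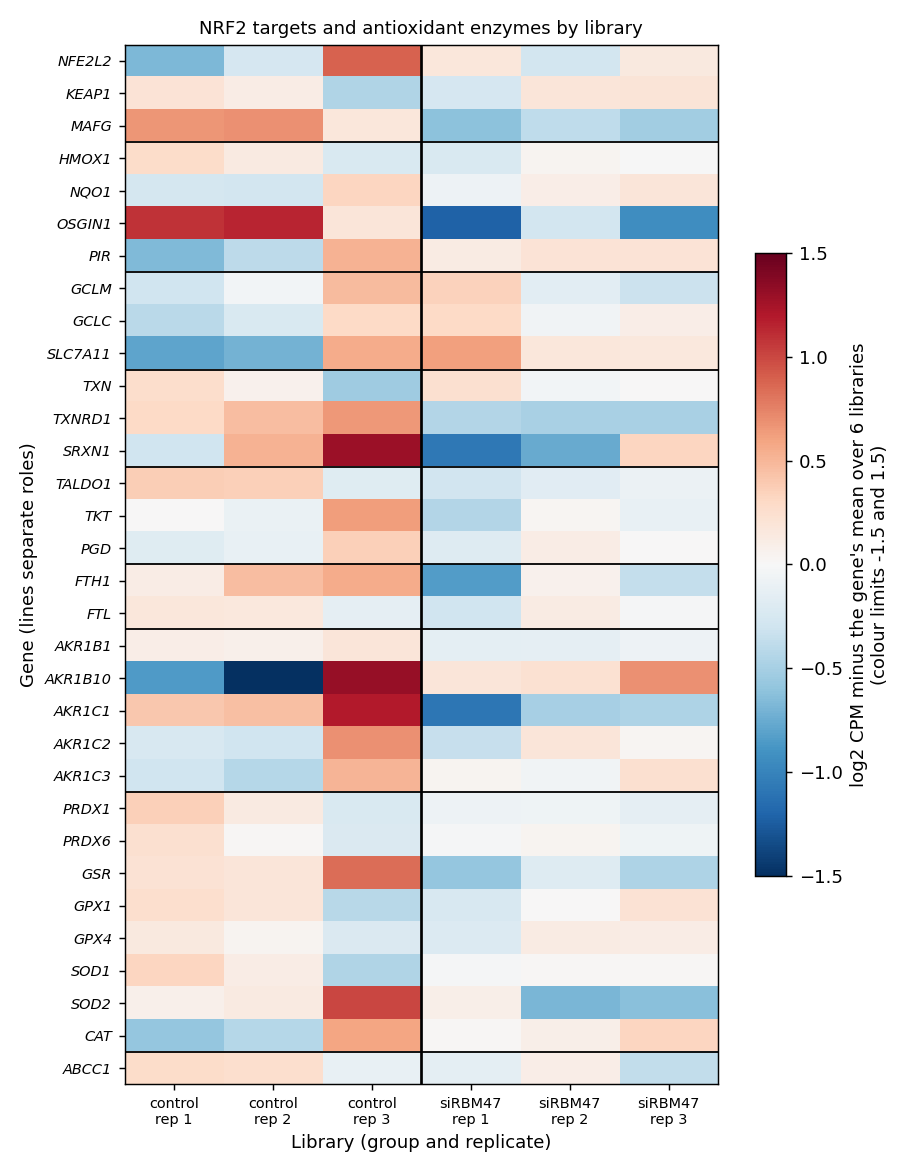
Log2 CPM of the 32 tested genes in each library, as the difference from the gene's mean over 6 libraries (red above, blue below, limits -1.5 and 1.5), with lines between roles. OSGIN1, MAFG, TXNRD1, AKR1C1 and GSR are red in all 3 control columns and blue in all 3 siRBM47 columns, while control replicate 3 differs in shade from the other controls for most genes.

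The regulators differed in their values. NFE2L2, encoding NRF2 itself (ENSG00000116044, chromosome 2), was measured at 44.5, 60.0 and 131.6 CPM in control replicates 1 to 3 and at 80.3, 58.8 and 78.7 in siRBM47 replicates 1 to 3. The siRBM47 values fell inside the control range, which control replicate 3 set at its upper end (log2 difference -0.12, SE 0.36, 95% interval -0.92 to 0.69, edgeR adjusted p = 0.904). Without that library the difference was 0.47 (SE 0.19, edgeR adjusted p = 0.091). KEAP1, the adaptor that marks NRF2 for degradation, lay between 40.6 and 64.0 CPM in control and between 46.4 and 63.5 in siRBM47, and the groups overlapped (log2 difference 0.07, SE 0.23, and -0.10, SE 0.18, without control replicate 3). On the same strand, 17.6% of the NFE2L2 exon length is shared with AC019080.1, which was at 1.02 to 2.93 CPM. On the opposite strand, AC079305.1 and AGPS cover 4.1% of it, and AGPS was at 59.8 to 93.3 CPM. The libraries were made without strand marking, so both overlaps make the NFE2L2 level uncertain.

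MAFG, a small MAF protein that pairs with NRF2 on DNA (chromosome 17), was at 58.4, 59.8 and 41.6 CPM in control and at 24.2, 28.5 and 25.8 in siRBM47. All 3 siRBM47 libraries were lower than the lowest control, at a ratio of 0.49 (log2 difference -1.03, SE 0.20, 95% interval -1.48 to -0.57, edgeR adjusted p = 0.0739, DESeq2 adjusted p = 0.00138). Leaving out control replicate 3, where MAFG was lowest of the controls, gave -1.18 (SE 0.16, edgeR adjusted p = 0.000355). The opposite strand carries another transcript over 4.3% of the MAFG exon length, and reads of an unstranded kit cannot be assigned between them.

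Of the small NRF2-responsive genes, OSGIN1 had the lowest ratio of all 32 tested members. OSGIN1, an oxidative stress-induced growth inhibitor (ENSG00000140961, chromosome 16, 3460 exon bases), was at 42.4, 44.2 and 22.7 CPM in control and at 8.62, 16.6 and 10.5 in siRBM47. Control replicate 3 was the lowest control and still above every siRBM47 library (log2 difference -1.61, SE 0.33, 95% interval -2.34 to -0.88, ratio 0.33, edgeR adjusted p = 0.0741, DESeq2 adjusted p = 0.000367). The difference was -1.86 without control replicate 3 (SE 0.24, edgeR adjusted p = 0.000194). On the same strand, 13.9% of its exon length is shared with another annotated gene that had 0 counts in every library.

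HMOX1, heme oxygenase, and NQO1, a quinone reductase, are the classical readouts of NRF2 activity. HMOX1 was at 54.6, 49.7 and 38.6 CPM in control and at 38.4, 46.5 and 45.0 in siRBM47, with overlapping groups (log2 difference -0.14, SE 0.20, 95% interval -0.58 to 0.31, and -0.27, SE 0.17, without control replicate 3). NQO1 was at 255.6, 254.5 and 384.7 CPM against 291.7, 328.3 and 348.8, also overlapping (0.11, SE 0.21, 95% interval -0.36 to 0.59). Without control replicate 3, the NQO1 difference was 0.34 (SE 0.14, edgeR adjusted p = 0.104). With all libraries neither interval reaches a log2 difference of -1 or 1. An opposite-strand gene with 0 counts covers 17.7% of the NQO1 exon length. PIR, pirin, an iron-containing nuclear protein, was at 9.07, 10.9 and 20.7 CPM in control and between 15.6 and 16.6 in siRBM47. Its siRBM47 values lay between control replicate 3 and the other controls. The difference was 0.26 with all libraries (SE 0.30, edgeR adjusted p = 0.721), ranged from 0.05 to 0.70 with 1 library left out, and passed only without control replicate 3 (0.70, SE 0.20, edgeR adjusted p = 0.0251).

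**Figure D3:**
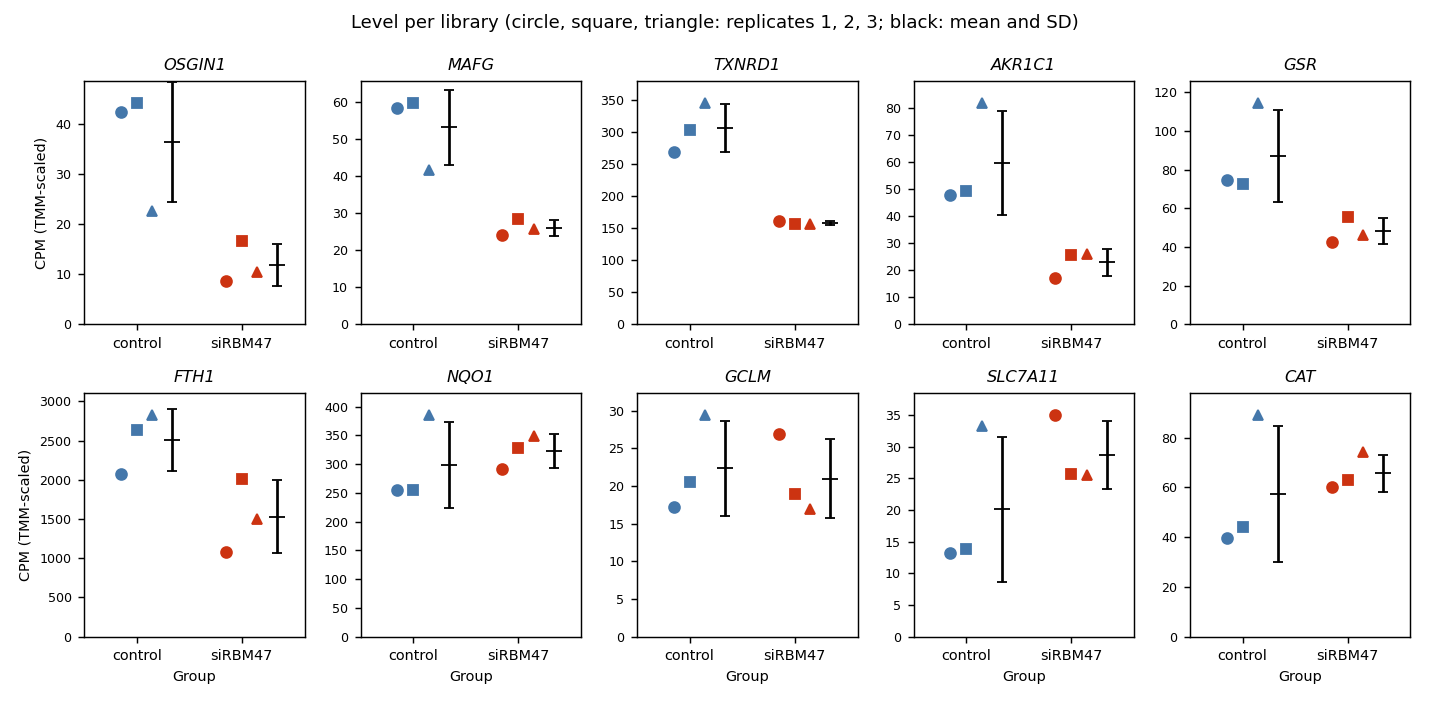
CPM per library for 10 genes from 0 upwards, with replicates 1, 2 and 3 as circle, square and triangle and the mean and SD in black. For OSGIN1, MAFG, TXNRD1, AKR1C1, GSR and FTH1 every siRBM47 point is below every control point, while for NQO1, GCLM, SLC7A11 and CAT the triangle of control replicate 3 is the highest control point and the groups overlap.

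Genes of glutathione synthesis and cystine uptake did not pass with all libraries. GCLC and GCLM encode the catalytic and modifier subunits of glutamate-cysteine ligase, which makes the first bond of glutathione. GCLC was at 30.5, 34.3 and 49.3 CPM in control and at 49.3, 38.7 and 43.0 in siRBM47, and GCLM was at 17.2, 20.5 and 29.4 against 26.9, 19.0 and 16.98. The groups overlapped for each (log2 differences 0.20, SE 0.22, and -0.10, SE 0.27). Without control replicate 3, GCLC was at 0.43 (SE 0.18, edgeR adjusted p = 0.0959) and GCLM at 0.15 (SE 0.22). SLC7A11, the cystine importer that feeds glutathione synthesis, was at 13.1, 13.9 and 33.3 CPM in control and at 34.9, 25.6 and 25.5 in siRBM47. Control replicate 3 lay within the siRBM47 range, and the difference was 0.51 with it (SE 0.35, edgeR adjusted p = 0.514) and 1.09 without it (SE 0.21, edgeR adjusted p = 0.0028). An antisense transcript covers 9.0% of the SLC7A11 exon length, with at most 1 count in a library.

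In the thioredoxin system the reductase and its substrate differed in their values. TXNRD1, the cytosolic selenoenzyme that reduces thioredoxin with NADPH (ENSG00000198431, chromosome 12), was at 269.4, 303.3 and 344.8 CPM in control and at 161.8, 156.8 and 156.8 in siRBM47. The 3 siRBM47 libraries agreed closely (158.4 ± 2.89, SD, n = 3, against 305.8 ± 37.8) and none reached the lowest control. The ratio was 0.52 (log2 difference -0.95, SE 0.17, 95% interval -1.34 to -0.56, edgeR adjusted p = 0.0716, DESeq2 adjusted p = 0.000202). Unlike OSGIN1 and MAFG, TXNRD1 had its highest control value in replicate 3, and the difference without that library was -0.85 (SE 0.14, edgeR adjusted p = 0.001). None of its transcripts' 100-base stretches occurs in transcripts of another annotated gene, so shared reads are not a concern for it at that length.

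TXN, thioredoxin, was at 708.7, 613.9 and 406.7 CPM in control and at 692.7, 572.0 and 592.0 in siRBM47, with overlapping groups (log2 difference 0.10, SE 0.23, and -0.10, SE 0.15, without control replicate 3). SRXN1, which reactivates over-oxidized peroxiredoxins, was counted only 14, 29 and 53 times in control and 10, 12 and 26 times in siRBM47 (log2 difference -1.02, SE 0.54, edgeR adjusted p = 0.39, and -0.55, SE 0.52, without control replicate 3). Its level is uncertain for a further reason: 85.0% of its exon length is shared on the same strand with the annotated gene AL121758.1, which had 1 count in all 6 libraries together. Reads that fit both genes may not have been counted for either, and the counting rule for such reads is not given in the sources used here.

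Of the enzymes that supply NADPH, 3 of 4 could be tested and 0 passed with all libraries. TALDO1, transaldolase of the pentose phosphate pathway, was at 234.7, 232.3 and 159.2 CPM in control and at 148.8, 160.5 and 170.4 in siRBM47. Control replicate 3 fell within the siRBM47 range (log2 difference -0.38, SE 0.20, edgeR adjusted p = 0.387), and without it the difference was -0.55 (SE 0.14, edgeR adjusted p = 0.0139). TKT, transketolase of the same pathway, was highest in control replicate 3 at 672.9 CPM and lay between 322.1 and 446.0 in the other 5 libraries (-0.37, SE 0.24, and -0.11, SE 0.16, without control replicate 3). PGD, which makes NADPH from 6-phosphogluconate, ranged from 209.1 to 303.9 CPM in control and from 207.1 to 256.1 in siRBM47 (-0.06, SE 0.20, and 0.12, SE 0.15, without control replicate 3). ME1, cytosolic malic enzyme, had 0, 0 and 3 counts in control and 1, 3 and 5 in siRBM47. A count of 0 allows up to 3, so no difference was detectable at this depth.

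Ferritin stores iron in a shell of heavy and light chains and so withholds it from radical chemistry. FTH1 was at 2070, 2640 and 2822 CPM in control and at 1078, 2012 and 1502 in siRBM47. The groups were apart by a narrow margin, between 2012 and 2070 (log2 difference -0.71, SE 0.25, 95% interval -1.27 to -0.15, edgeR adjusted p = 0.215, and -0.62, SE 0.21, edgeR adjusted p = 0.0483 without control replicate 3). FTL was at 4032, 4017 and 3268 CPM against 2913, 3924 and 3565, with overlapping groups (-0.12, SE 0.19, and -0.21, SE 0.15, without control replicate 3). Both chains had their lowest value in siRBM47 replicate 1, and their summed share of the scaled library was 0.399% there against 0.507% to 0.666% elsewhere. On the opposite strand 62.4% of the FTH1 exon length is covered by BEST1, and 46.6% of its 100-base stretches occur in transcripts of 10 other genes. Reads shared in that way make the FTH1 level uncertain. BEST1 itself was at 4.26 to 7.94 CPM, with a log2 difference of 0.25 (SE 0.28, edgeR adjusted p = 0.704).

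The aldo-keto reductases reduce sugar aldehydes, lipid aldehydes and steroids, and 5 were measured. AKR1C1, a steroid and aldehyde reductase (ENSG00000187134, chromosome 10), was at 47.7, 49.3 and 81.8 CPM in control and at 16.96, 25.5 and 26.1 in siRBM47. All siRBM47 libraries were below all controls, at a ratio of 0.38 (log2 difference -1.38, SE 0.27, 95% interval -1.99 to -0.77, edgeR adjusted p = 0.0739, DESeq2 adjusted p = 0.000465), and the difference was -1.08 without control replicate 3 (SE 0.20, edgeR adjusted p = 0.00225). AKR1C2, its close copy on the opposite strand of the same locus, was at 8.67, 8.29 and 16.4 CPM against 8.01, 11.5 and 10.4, with overlapping groups (-0.16, SE 0.31, and 0.24, SE 0.23, without control replicate 3). AKR1C3, another member of the cluster, was at 33.3, 30.6 and 58.3 CPM against 42.1, 39.8 and 48.5, also overlapping (0.09, SE 0.26, and 0.45, SE 0.17, edgeR adjusted p = 0.0797 without control replicate 3). The difference between AKR1C1 and its copies was not itself tested. Of the 100-base stretches of AKR1C1 transcripts, 16.5% occur in AKR1C2, and 22.1% of those of AKR1C2 occur in AKR1C1, so their counts are uncertain to that extent.

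AKR1B10, a retinal and aldehyde reductase, was at 3.18, 1.96 and 14.1 CPM in control and at 6.46, 6.69 and 9.22 in siRBM47. The control libraries spanned the siRBM47 values from both sides, so the sign of its difference rested on them: 0.21 with all libraries (SE 0.61, edgeR adjusted p = 0.898), 1.54 without control replicate 3 (SE 0.31, edgeR adjusted p = 0.00374) and -0.10 and -0.21 without control replicates 1 and 2. AKR1B1, aldose reductase, was at 1842, 1812 and 1955 CPM in control and at 1558, 1574 and 1629 in siRBM47. The groups were apart, yet the difference was small (log2 difference -0.24, SE 0.17, 95% interval -0.61 to 0.13, edgeR adjusted p = 0.517, and -0.20, SE 0.13, without control replicate 3).

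Among the peroxidases, dismutases, catalase and glutathione reductase, GSR was the only one of 8 with groups that did not overlap. GSR, the NADPH-dependent glutathione reductase, was at 74.5, 72.6 and 114.4 CPM in control and at 42.6, 55.7 and 46.3 in siRBM47. The ratio was 0.55 (log2 difference -0.85, SE 0.23, 95% interval -1.37 to -0.34, edgeR adjusted p = 0.128, DESeq2 adjusted p = 0.0261), and without control replicate 3 the difference was -0.61 (SE 0.17, edgeR adjusted p = 0.019). SOD2, the manganese superoxide dismutase of mitochondria, was at 227.3, 237.5 and 434.0 CPM in control and at 230.3, 134.2 and 140.0 in siRBM47. Replicate 1 of siRBM47 lay among the controls while replicates 2 and 3 were below them (-0.83, SE 0.31, edgeR adjusted p = 0.234, and -0.47, SE 0.20, edgeR adjusted p = 0.118 without control replicate 3).

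Catalase (CAT), which breaks down hydrogen peroxide in peroxisomes, was at 39.5, 44.0 and 88.9 CPM in control and at 60.1, 62.9 and 74.1 in siRBM47. Control replicate 3 was above every siRBM47 library and the other controls were below them, and the difference was 0.19 with it (SE 0.30) and 0.65 without it (SE 0.17, edgeR adjusted p = 0.0146). PRDX1, PRDX6, GPX1, GPX4 and the copper-zinc dismutase SOD1 had log2 differences from -0.20 to 0.02 with SEs of 0.18 to 0.23 and overlapping groups. Without control replicate 3 their differences ran from -0.34 (PRDX1, edgeR adjusted p = 0.0885) to -0.08 (GPX4). MMACHC covers 24.9% of the PRDX1 exon length on the opposite strand. GPX4, which reduces lipid peroxides in membranes and guards against ferroptosis, was at 381.4, 356.05 and 298.4 CPM in control and at 300.8, 374.9 and 372.5 in siRBM47 (0.02, 95% interval -0.40 to 0.43). SOD1 had a narrow spread in siRBM47 (255.9 to 263.2 CPM) within the wider control range (189.1 to 323.5). ABCC1, the pump that exports glutathione conjugates, was at 59.5, 58.4 and 45.5 CPM against 44.4, 52.5 and 37.9, and its groups overlapped (-0.28, SE 0.20, and -0.39, SE 0.17, without control replicate 3).

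**Figure D4:**
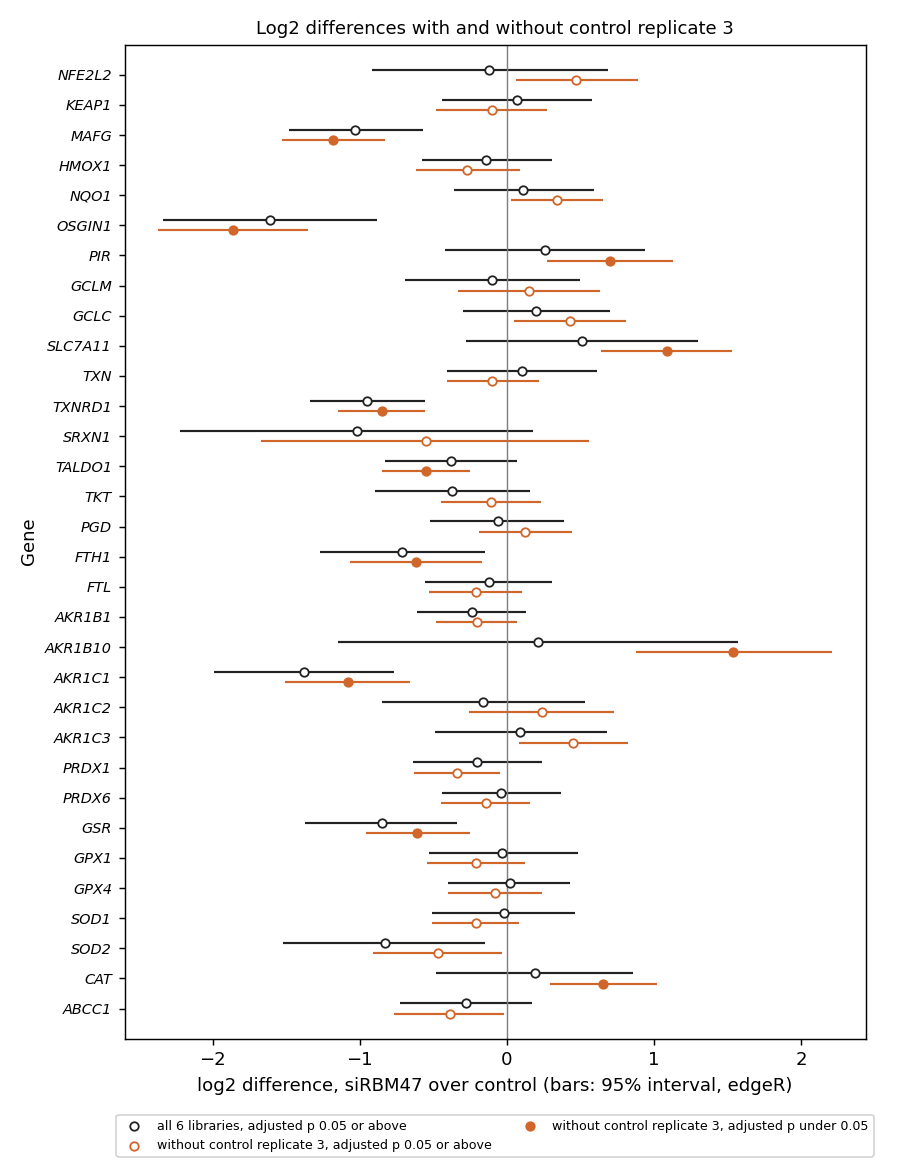
Log2 difference of siRBM47 over control for the 32 tested genes with 95% intervals, for all 6 libraries (black) and without control replicate 3 (orange), with filled points past an adjusted p of 0.05. No black point is filled, and 11 orange points are: 7 below 0 (MAFG, OSGIN1, TXNRD1, TALDO1, FTH1, AKR1C1 and GSR) and 4 above 0 (PIR, SLC7A11, AKR1B10 and CAT).

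The place of control replicate 3 split the members. It was above both other controls for 19 of the 32 tested members and below both for 13, beside 44.9% and 43.8% of all tested genes. The 19 included NFE2L2, SLC7A11, AKR1B10, CAT, SOD2, GSR and all 5 aldo-keto reductases, and the 13 included TXN, PRDX1, PRDX6, SOD1, GPX1, GPX4, FTL, KEAP1, MAFG and OSGIN1. In log2 CPM, control replicate 3 minus the average of replicates 1 and 2 ran from -0.93 (OSGIN1) to 2.44 (AKR1B10). Exon length, with all annotated exons of a gene merged and so not the length of a transcript, moved with this split. Its median was 4532 bases (1744 to 16493) in the 19 genes and 2367 bases (878 to 7575) in the 13. All tested genes were not compared in this way. Its part in the result was not tested. The 5 members called by DESeq2 were on both sides, MAFG and OSGIN1 below and TXNRD1, AKR1C1 and GSR above, and all 5 passed edgeR without that library. The 4 members called higher without it were each above both other controls in control replicate 3. Leaving out the highest control raises the difference, so this follows in part from the procedure. The same holds in the other direction, as leaving out the lowest control lowers the difference. Control replicate 3 was the lowest control for MAFG, OSGIN1 and TALDO1, which were called lower without it. For TXNRD1, FTH1, AKR1C1 and GSR, also called lower without it, it was the highest control, and their differences were then smaller in size.

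The rest of the pathway was read from 6 further lists, with 93 genes found and 83 tested. By edgeR with all libraries 0 of the 83 passed, with 3 lower and 4 higher at an unadjusted p under 0.05, beside 8.94% and 7.15% of all tested genes. Limma-voom gave 0 and DESeq2 gave 2 lower (MAFF and SESN2) and 1 higher (ABCC3), where 2.63% and 1.79% of all tested genes were lower and higher by DESeq2. The median log2 difference of the 83 was 0.06. Every siRBM47 library lay below every control for 7 of the 83 and above for 7, beside 11% and 11.6% of all tested genes. Without control replicate 3, edgeR gave 4 lower and 11 higher, beside 11.3% and 10.1% of all tested genes.

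Among 10 NRF2 regulators and partners, values lay below the controls in every siRBM47 library for 2 genes and above them for 1, BTRC, which was chosen for naming after its values were seen (log2 difference 0.25, SE 0.18). Over all tested genes, 11% and 11.6% lay below and above in that way. MAFF, another small MAF protein, was at 92.8, 92.8 and 76.8 CPM in control and at 60.7, 56.2 and 49.995 in siRBM47 (log2 difference -0.65, SE 0.18, edgeR adjusted p = 0.139, DESeq2 adjusted p = 0.0407, and -0.74, SE 0.15, edgeR adjusted p = 0.00483 without control replicate 3). NFE2L1, an NRF2 relative that controls proteasome genes, was at 311.3, 364.8 and 492.7 CPM against 208.2, 260.5 and 257.9 (-0.69, SE 0.22, edgeR adjusted p = 0.175, and -0.48, SE 0.15, edgeR adjusted p = 0.0374 without control replicate 3). MAFK, the last small MAF gene, overlapped between groups (-0.39, SE 0.28, and -0.52, SE 0.25, without control replicate 3). Its difference from MAFG and MAFF was not tested.

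In the glutathione list (20 tested) 0 passed with all libraries. MGST2, a microsomal glutathione transferase at very low level (0.460 ± 0.158 and 1.48 ± 0.0743 CPM), and GSTA4, which conjugates lipid aldehydes (27.0 ± 3.99 and 41.0 ± 1.79 CPM), were above the controls in every siRBM47 library (SD, n = 3; log2 differences 1.65, SE 0.44, and 0.60, SE 0.19; edgeR adjusted p = 0.122 and 0.172). Without control replicate 3, MGST2 was at 1.97 (SE 0.51, edgeR adjusted p = 0.0148) and GSTA4 at 0.73 (SE 0.17, edgeR adjusted p = 0.0086). Another 2 genes of this list lay below the controls in every siRBM47 library and are named after their values were seen: GGT1, which cleaves extracellular glutathione (-0.32, SE 0.20), and SLC3A2, the heavy chain that partners SLC7A11 (-0.33, SE 0.17). GSTO1, a glutathione transferase that also reduces dehydroascorbate, was at 393.8, 328.9 and 152.5 CPM in control and between 180.9 and 203.5 in siRBM47 (-0.62, SE 0.31). Control replicate 3 was again beyond the siRBM47 range, and without it the difference was -0.93 (SE 0.14, edgeR adjusted p = 0.000729). In the list of other peroxidases and thioredoxins (18 tested) SESN2, sestrin 2, was at 107.5, 113.1 and 135.6 CPM against 52.1, 69.1 and 73.9 (-0.87, SE 0.20, edgeR adjusted p = 0.102, DESeq2 adjusted p = 0.00778, and -0.76, SE 0.17, edgeR adjusted p = 0.00702 without control replicate 3). MSRB1, a methionine sulfoxide reductase, lay above the controls in every siRBM47 library (0.58, SE 0.22, edgeR adjusted p = 0.241, and 0.43, SE 0.19, without control replicate 3). MSRB2, named after its values were seen, also lay above the controls in every siRBM47 library (0.22, SE 0.19, edgeR adjusted p = 0.618, and 0.29, SE 0.19, without control replicate 3). Their relative MSRB3 overlapped with all libraries (0.49, SE 0.31, edgeR adjusted p = 0.483) and passed without control replicate 3 (0.95, SE 0.20, edgeR adjusted p = 0.00522).

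For the other NADPH enzymes (12 tested) the smallest p belonged to RPE (0.44, SE 0.22), ME3 (-1.07, SE 0.62) and ME2 (-0.31, SE 0.18), with edgeR adjusted p from 0.369 to 0.434. Without control replicate 3 they were at 0.56 (SE 0.20), -0.73 (SE 0.65) and -0.36 (SE 0.17). Only ME2 of this list lay below the controls in every siRBM47 library, and 0 lay above. With that control left out 3 of the 12 passed, all higher, where 10.1% of all tested genes were higher. Named after their values were seen, these were IDH1 (0.89, SE 0.15, edgeR adjusted p = 0.00115), ALDH1L2 (1.07, SE 0.19, edgeR adjusted p = 0.0016) and NNT (1.01, SE 0.26, edgeR adjusted p = 0.0138). In the detoxification and export list (15 tested) ABCC3, an exporter of conjugates, was at 9.41, 12.6 and 17.1 CPM in control and at 24.7, 28.97 and 22.2 in siRBM47, with groups apart (0.95, SE 0.25, edgeR adjusted p = 0.127, DESeq2 adjusted p = 0.0219, and 1.2, SE 0.21, edgeR adjusted p = 0.00191 without control replicate 3). Its relative ABCC4 overlapped with all libraries (0.43, SE 0.30, edgeR adjusted p = 0.516) and passed without control replicate 3 (0.89, SE 0.18, edgeR adjusted p = 0.00379). The reductase PTGR1 overlapped (-0.29, SE 0.27, and 0.06, SE 0.18, without control replicate 3). In the heme and iron list (8 tested) the biliverdin reductase BLVRB, at 232.4 ± 16.0 and 185.1 ± 27.2 CPM, had groups that were apart by a small difference (-0.33, SE 0.18, edgeR adjusted p = 0.418, and -0.37, SE 0.16, without control replicate 3). BLVRA, the other biliverdin reductase, lay above the controls in every siRBM47 library (0.15, SE 0.16, edgeR adjusted p = 0.694) and was named after its values were seen. The transferrin receptor TFRC (0.27, SE 0.22) and the iron transporter SLC11A2 (-0.25, SE 0.21) overlapped between groups, and without control replicate 3 they were at 0.46 (SE 0.17) and -0.02 (SE 0.16).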

How the data were processed

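Per the submitters' processing notes, the tools were HISAT2 2.0.5 (alignment) and featureCounts 1.5.0-p3 (counting) and the build hg38. Annotation, strandedness and the handling of shared reads: not given in the sources used here. Per the labels' protocols, libraries were made with a kit without strand marking. The deposited tables hold whole-number counts per gene, used for all tests. They also hold FPKM values computed by the authors, per the file headers, used only for levels between genes.

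Genes kept by filterByExpr (minimum count 10) were tested with edgeR 4.0.16 (quasi-likelihood, TMM, no block; R 4.3.3), adjusted by Benjamini-Hochberg over 14578 genes at a threshold of 0.05. The SE is the absolute log2 difference over the square root of F. DESeq2 1.42.0, limma-voom (limma 3.58.1), other scalings and filters, leaving out single libraries, and a replicate block served as alternatives. Left-out fits kept the same genes. The edgeR step was tested on simulated data.

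Gene symbols were looked up by Ensembl identifier, and that of SOD2 in GENCODE release 29. Exon overlaps and shared 100-base stretches use the same release. Motif windows are from RefSeq. No pair of libraries in a group agreed within sampling noise (chi-square per degree of freedom from 10.74 to 144.83). The members, lists and the naming rule (all members, and the list genes past the threshold or else the 3 with the smallest p) were chosen with earlier results of these data known. Transcripts of AKR1C1 and AKR1C2 hold identical 100-base stretches, and how reads from these were counted is not known. Limits for a count of 0 cover counting error only.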

Additional observations from a re-analysis of the deposited data

How the results depend on the processing

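The count of members past the threshold was 0 with all libraries by edgeR, 5 by DESeq2 and 6 without a filter (the 5 of DESeq2 and SOD2), and 0 to 11 with a library left out, the 11 without control replicate 3. The count over all tested genes was 32, 644 by DESeq2, 804 without a filter and 0 to 3117 with a library left out: 19 and 12 without control replicates 1 and 2, 3117 without control replicate 3 and 0 without any one siRBM47 library. For the 83 tested list genes it was 0, 3 by DESeq2, 2 without a filter and 0 to 15. The members' median stayed between -0.17 and -0.05 in every setting. The cause of these shifts was not tested.

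Genes near 0 turned sign with 1 library left out, over these ranges of the log2 difference: NFE2L2 -0.39 to 0.47, KEAP1 -0.10 to 0.21, GCLM -0.32 to 0.15, TXN -0.10 to 0.29, PGD -0.16 to 0.12, AKR1B10 -0.21 to 1.54, AKR1C2 -0.33 to 0.24, AKR1C3 -0.07 to 0.45, PRDX6 -0.14 to 0.09, GPX1 -0.21 to 0.10, GPX4 -0.08 to 0.11, SOD1 -0.21 to 0.16, CAT -0.01 to 0.65, PTGR1 -0.47 to 0.06 and RBM47 -0.39 to 0.76. By limma-voom NFE2L2, SOD1 and RBM47 turned to 0.02, 0.01 and 0.10. With the replicate block they were 0.02, 0.01 and 0.12, and 39 genes but 0 members passed. The numbers share no stated source, and deviations of same-numbered libraries correlated at -0.04, 0.13 and 0.12, so they were not taken as pairs. Low counts limit SRXN1, ME1, MGST2 and ME3.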
